A study of Homo sapiens and Mus musculus with 12 samples.

Results

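The genes described here are the NR4A orphan nuclear receptors Nr4a1 (Nur77), Nr4a2 (Nurr1) and Nr4a3 (Nor1) and the zinc finger factors Egr1 and Egr2, with their human counterparts NR4A1, NR4A2, NR4A3, EGR1 and EGR2. They were chosen by gene symbol alone, which gave 5 of the 22021 genes listed in the mouse count table and 5 of the 18304 in the human one. All 5 passed the filter on low counts in each species. The question was how their transcript levels differ when the histone methyltransferase EHMT2 (G9a), which places the repressive H3K9me2 mark, is deleted or inhibited in NK cells.

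NK cells were sorted from spleens of C57BL/6J mice for RNA-seq. WT mice were Ehmt2 flox/flox, with loxP sites around part of Ehmt2 on both chromosomes. KO mice carried the same floxed alleles and iCre driven from Ncr1, which encodes the activating receptor NKp46, so both groups share the flox/flox background and only KO cells that have turned on Ncr1 recombine. The genotype label of the KO libraries reads Ezh2-KO, whereas their titles read EHMT2-KO, and the titles were followed. The human cells were NK92MI, an established human NK line engineered to produce IL-2, treated with BIX-01294 (BIX), a small-molecule EHMT2 inhibitor, or with its solvent DMSO. The labels give neither dose nor duration of this treatment. They also do not say that the libraries of a group came from separate mice or cultures, so the p-values measure only the spread between these samples, which may be technical. Each of the 4 groups had 3 libraries. NK92MI is 1 transformed line.

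NR4A and EGR genes are immediate early genes: they are switched on within minutes of receptor signalling, before new protein is made, through calcium and calcineurin, the MAP kinase and SRF route, and CREB. NR4A proteins bind DNA without a known physiological ligand at an NGFI-B response element (NBRE), alone or, for some of them, with an RXR partner. EGR proteins bind a GC-rich element and are held in check by the corepressors NAB1 and NAB2. In lymphocytes Nr4a1 is widely used as a reporter of antigen receptor signalling, and Egr2 and the NR4A genes are known for their part in T cell anergy and exhaustion.

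To show the promoter DNA of the members that were higher with BIX beside a member that was not, the promoter windows of the RefSeq table (GRCh38.p14, from 250 bases before to 50 bases after an annotated start) were searched on both strands for 8 motifs. These were the cyclic AMP response element (CRE) TGACGTCA, its core TGACG, which is also contained in the full CRE, 3 forms of the SRF site (CArG box, A and T letters between CC and GG), the EGR site GCGTGGGCG, the NBRE AAAGGTCA and the GC box GGGCGG. The table matched 4 of the 5 human members with 7 windows. The 250 bases before a start are printed 5′ to 3′ on the strand of the gene, and capitals mark the core TGACG (or its reverse complement CGTCA) and the CArG boxes.
NR4A3, chr9:99821635-99821884, plus strand: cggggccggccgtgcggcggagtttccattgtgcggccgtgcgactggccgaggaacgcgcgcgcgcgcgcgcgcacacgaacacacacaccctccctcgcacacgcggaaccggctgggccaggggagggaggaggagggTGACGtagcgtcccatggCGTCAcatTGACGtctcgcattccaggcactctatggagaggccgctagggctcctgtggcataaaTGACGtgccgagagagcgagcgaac
NR4A1, chr12:52037465-52037714, plus strand: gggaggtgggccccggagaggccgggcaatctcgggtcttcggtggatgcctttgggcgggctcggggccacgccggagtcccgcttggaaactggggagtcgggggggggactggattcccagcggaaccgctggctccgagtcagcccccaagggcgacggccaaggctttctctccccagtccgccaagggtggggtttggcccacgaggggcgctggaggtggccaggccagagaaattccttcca
EGR2, chr10:62816367-62816616, minus strand: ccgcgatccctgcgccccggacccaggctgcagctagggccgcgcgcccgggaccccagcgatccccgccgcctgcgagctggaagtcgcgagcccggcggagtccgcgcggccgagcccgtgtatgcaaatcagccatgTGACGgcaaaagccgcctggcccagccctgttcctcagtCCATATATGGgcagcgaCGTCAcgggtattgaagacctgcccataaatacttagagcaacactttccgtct
EGR1, chr5:138465229-138465478, plus strand: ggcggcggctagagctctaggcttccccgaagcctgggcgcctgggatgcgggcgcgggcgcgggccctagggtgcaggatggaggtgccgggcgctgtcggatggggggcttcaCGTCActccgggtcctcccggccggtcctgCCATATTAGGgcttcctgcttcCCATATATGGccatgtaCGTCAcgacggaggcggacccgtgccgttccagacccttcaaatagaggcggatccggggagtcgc

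The NR4A3 window held 4 copies of TGACG and no CArG box. The EGR1 window held 2 copies of TGACG and 2 CArG boxes of different form, at positions −105 and −83 from the start. The EGR2 window shown held 2 copies of TGACG and a CArG box at position −71. Neither of the 2 NR4A1 windows, of which the second is printed, held TGACG or a CArG box, and neither did the other 2 windows of EGR2. The second NR4A1 window ends at base 52037764, and the gene runs on to base 52059507. That stretch was not searched, so the absence holds for these windows and not for every NR4A1 promoter. No window of these members held the full CRE, the EGR site or the NBRE. GC boxes numbered 1 in the second NR4A1 window, 1 in the NR4A3 window, and 4 and 2 in the EGR2 windows not shown. Among all 35116 windows of this length, 24.6% held TGACG, 45% the GC box, 1.85% the full CRE, 1.22% the NBRE and 0.795% the EGR site, while the forms of the CArG box were found in 0.0342% (that at position −105 in EGR1), 0.0256% (that at position −83 in EGR1 and in EGR2) and 0.037% (in no window of these members). A match describes letters and not binding.

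Levels are given as counts scaled to the size of the library (CPM) after TMM normalization, which sets libraries on a common scale by assuming that most genes do not differ. A gene was called at an adjusted p under 0.05 by edgeR's quasi-likelihood test with Benjamini-Hochberg adjustment over all genes tested, 13189 in mouse and 12727 in human.

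Total counts were between 25891680 (WT replicate 2) and 37236209 in WT and between 36384416 and 37438868 in KO libraries, and between 16579469 and 17165446 in human libraries. The variation between replicates, as the biological coefficient of variation, was 18.2% in mouse and 7.55% in human. Replicates of every group differed from each other by more than sampling noise (chi-square test of their counts). In NK92MI cells the 12 NK genes summed to 4519 to 4897 CPM with DMSO and to 5036 to 6197 CPM with BIX, with 5 of 12 called higher (GZMB, PRF1, NKG7, KLRD1 and NCR3), 5 lower (NCR1, KLRC1, IL2RB, TBX21 and EOMES) and a median log2 fold change of 0.03. Of these NK genes 83.3% were called, against 36.9% of all human genes tested. The targeted gene Ehmt2 stood at 275, 284 and 285 CPM across WT replicates 1 to 3 and 171, 143 and 137 CPM across KO replicates 1 to 3. The KO libraries lay below all WT libraries, with means of 282 ± 5.94 and 150 ± 18.1 CPM (SD, n = 3), and its log2 fold change was −0.91 (SE 0.10, adjusted p = 0.0162 by edgeR). That call was lost without WT replicate 3 (adjusted p = 0.0587), KO replicate 2 (0.0986) or KO replicate 3 (0.121). The log2 fold changes were −0.90, −0.87 and −0.85 in those fits, which called 14, 0 and 0 mouse genes in all. A count over the whole gene does not show the floxed part. EHMT2 was also lower with BIX, at 57.7 ± 3.66 against 38.5 ± 2.39 CPM (SD, n = 3), a log2 fold change of −0.58 (adjusted p = 0.000101 by edgeR).

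Among mouse genes 4.44% were called higher and 7.43% lower in KO cells. Among human genes 18.4% were called higher and 18.4% lower in BIX-treated cells. Of the 5 members, 1 was called higher in KO NK cells and 3 in BIX-treated NK92MI cells, and none was called lower in either comparison. Without overlap between the groups were 2 members in each species, all higher, against 19.1% of mouse and 24.1% of human genes tested that were higher in this way and 19.3% and 23.9% that were lower (38.5% and 47.9% in either direction). A log2 fold change above 0 was found for 3 of 5 members in each species, against 51.5% of mouse and 49% of human genes. At the study's own cutoffs, an adjusted p under 0.01 and a change over 0.5 on the log2 scale, 2 human members passed by edgeR. These were NR4A1 and NR4A3, against 11.7% of human genes tested, and 0 of 13189 mouse genes passed by edgeR. The study used DESeq2, another test, and reported mouse genes that passed these cutoffs in both directions. DESeq2 was applied here only at an adjusted p under 0.05, where it called 3087 mouse genes. At an unadjusted p under 0.05, 2080 mouse genes were higher and 2639 lower, and Nr4a2 and Nr4a3 were the members among them.

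**Figure D1:**
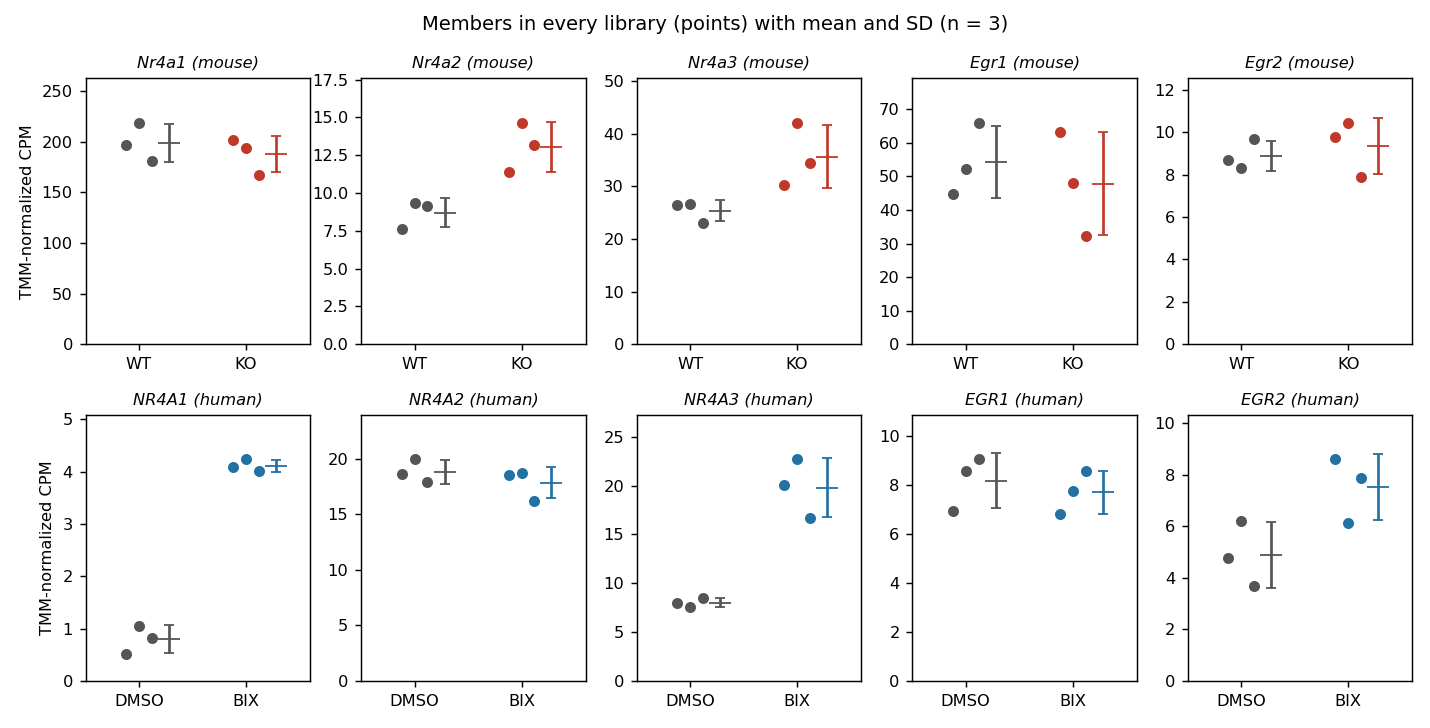
Each panel plots 1 member, with mouse genes above and human genes below. The vertical axis is TMM-normalized CPM from 0, points are the 3 libraries of a group and bars show the mean and SD. KO points lie above all WT points for Nr4a2 and Nr4a3, and BIX points above all DMSO points for NR4A1 and NR4A3.

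Among the mouse members Nr4a2 was called higher in KO NK cells with TMM normalization, whereas its sign turned under a scaling to NK cell genes given further on. Nr4a3 missed the threshold, and the more abundant Nr4a1 was not called. Nr4a2 (GRCm38, chromosome 2, 57106830 to 57124003, minus strand) encodes Nurr1, best known from dopaminergic neurons. Its level was 7.63, 9.35 and 9.16 CPM across WT replicates 1 to 3 and 11.4, 14.7 and 13.2 CPM across KO replicates 1 to 3. All KO replicates lay above all WT replicates, although these values rest on only 241 to 544 reads per library. Nr4a2 rose 1.501-fold, with a log2 fold change of 0.59 (SE 0.15, 95% interval 0.24 to 0.93, adjusted p = 0.0472 by edgeR). The adjusted p lay close to the threshold and the call was lost by edgeR without WT replicate 1 (0.128), WT replicate 3 (0.131), KO replicate 2 (0.165) or KO replicate 3 (0.153). In these fits the log2 fold change was between 0.50 and 0.62. They called 99, 14, 0 and 0 mouse genes in all, against 1565 with every library.

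Nr4a3 (chromosome 4, 48045153 to 48086447, plus strand) encodes Nor1. It stood at 26.4, 26.7 and 23.0 CPM across WT replicates 1 to 3 and at 30.2, 42.0 and 34.4 CPM across KO replicates 1 to 3. Again every KO replicate was above every WT replicate, with KO replicate 1 nearest to WT. The log2 fold change was 0.49 (SE 0.14, 95% interval 0.17 to 0.81), and the adjusted p of 0.0566 from edgeR missed the threshold. Nr4a3 was called by DESeq2 (adjusted p = 0.0175) and by edgeR without WT replicate 2 (0.0430) or without KO replicate 1 (0.0387). These fits called 3087, 3530 and 2032 mouse genes in all, against 1565 by edgeR with every library.

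Nr4a1 (chromosome 15, 101254269 to 101274795, plus strand) encodes Nur77, the family member most used as a readout of receptor signalling. Its level was 197, 219 and 181 CPM across WT replicates 1 to 3 and 201, 194 and 167 CPM across KO replicates 1 to 3, and the ranges overlapped over most of their width. With 5637 to 7398 reads per library this was the most precisely measured member in mouse, and the 95% interval of its log2 fold change of −0.09 (SE 0.11, adjusted p = 0.584 by edgeR) ran from −0.33 to 0.16.

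Egr1, on chromosome 18, showed the widest spread among replicates. It was counted at 44.8, 52.4 and 66.0 CPM across WT replicates 1 to 3 and at 63.1, 48.2 and 32.3 CPM across KO replicates 1 to 3. The highest and the lowest of these 6 values were a WT and a KO replicate, and the ranges otherwise overlapped. The log2 fold change of −0.18 had an interval from −0.75 to 0.38 (SE 0.24, adjusted p = 0.609 by edgeR), and it was 0.03 without KO replicate 3. Egr2 (chromosome 10, 67535475 to 67542188, plus strand) lay at 8.71, 8.30 and 9.67 CPM across WT replicates 1 to 3 and at 9.76, 10.5 and 7.90 CPM across KO replicates 1 to 3. The KO range enclosed the WT range, and the log2 fold change was 0.07 (SE 0.15, interval −0.28 to 0.43, adjusted p = 0.75 by edgeR) and −0.0088 without KO replicate 2. Both intervals include a rise and a fall, so the direction of a change of Egr1 or Egr2 was not determined.

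**Figure D2:**
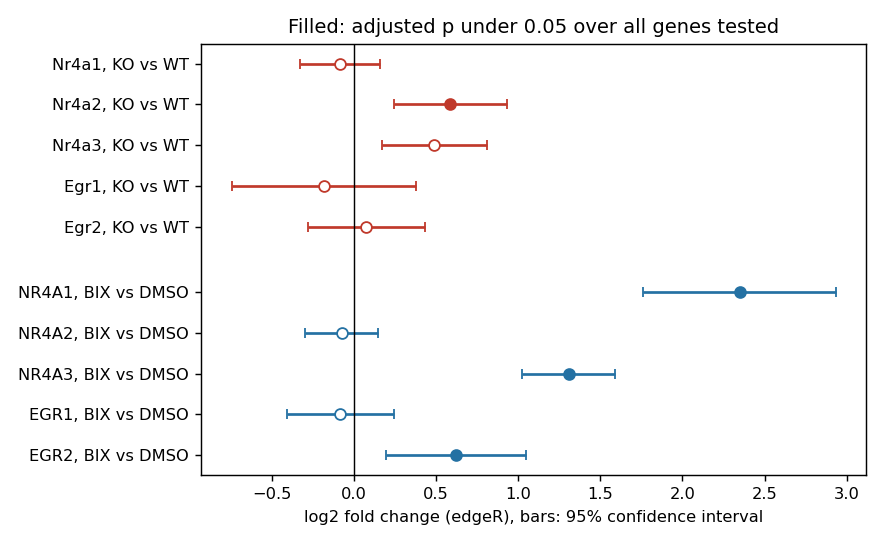
The horizontal axis is the log2 fold change from edgeR for each member, KO against WT in red and BIX against DMSO in blue, and bars are 95% confidence intervals. Filled points are calls at an adjusted p under 0.05. They are Nr4a2 in mouse and NR4A1, NR4A3 and EGR2 in human, and the intervals of Nr4a1, Egr1, Egr2, NR4A2 and EGR1 include 0.

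The mouse groups also differed in markers of the sorted population. Of all mouse genes tested 4.44% were called higher and 7.43% lower. All 12 pan-NK genes had log2 fold changes above 0, with a median of 0.79, and 7 were called higher. Their summed level was 5614 to 9534 CPM in WT and 10751 to 12541 CPM in KO libraries. The summed markers of B cells, dendritic cells, erythroid cells and platelets were lower in every KO library than in every WT library, and those of macrophages and monocytes, neutrophils, plasma cells, T cells and ILC1 overlapped. The summed level of 10 B cell genes was 585 to 1687 CPM in WT and 99.3 to 548 CPM in KO libraries, with all 10 genes below 0 on the log2 scale, 0 called by edgeR and 9 lower at an unadjusted p under 0.05. For 13 macrophage and monocyte genes it was 3161 to 7620 and 2049 to 3290 CPM, with 6 called lower and 1 higher. For neutrophils the sums were 193 to 1515 and 42.4 to 208 CPM with 3 of 9 tested genes called lower, and for dendritic cells 8410 to 9842 and 4346 to 7015 CPM with 3 of 9 called lower. The 8 erythroid genes, all called lower, summed to 218 to 363 and 99.9 to 132 CPM. Platelet genes summed to 1725 to 2744 and 1371 to 1518 CPM with 1 of 6 called lower. Plasma cell genes summed to 215 to 860 and 171 to 264 CPM with 0 of 6 called by edgeR and 4 lower at an unadjusted p under 0.05. T cell genes summed to 188 to 288 and 143 to 258 CPM with 2 of 9 called higher. ILC1 genes summed to 411 to 521 and 343 to 450 CPM with 0 of 9 called by edgeR, and 1 higher and 2 lower at an unadjusted p under 0.05. No marker was at 0 in all libraries of a group. The part of these cells in the values of Nr4a2 and the other members was not tested, and in bulk samples fewer cells of a type and less RNA per cell cannot be told apart.

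Scaling to the pan-NK genes in place of TMM lowered the KO values as a whole, moving the median log2 fold change of all genes tested from 0.01 to −0.82. On that scale Nr4a1 (log2 fold change −0.90, adjusted p = 0.00891) and Egr1 (−1.003, adjusted p = 0.0154) were called lower by edgeR. Nr4a2 stood at −0.24, Nr4a3 at −0.35 and Egr2 at −0.77 without a call. Of the 13189 genes tested, 8818 were called lower with this scaling and 35 higher. The scaling genes include Tbx21, Il2rb and Prf1, whose mRNA the paper reports as raised in KO NK cells by RT-qPCR. A rise of the scaling genes within NK cells would itself lower the other KO values on this scale, and this was not tested. Relative to the median gene the members stood in the same order on both scales. A change of scaling moves the log2 fold changes of all genes by about the same amount, so this agreement follows from the method. It does not test whether the rises of Nr4a2 and Nr4a3 withstand the scaling. Nr4a2 lay 0.572 above the median gene with TMM and 0.579 above it with pan-NK scaling, Nr4a3 0.474 and 0.471 above, and Egr2 0.0605 and 0.0503 above. Nr4a1 stood at −0.0995 and −0.0746 from the median gene, and Egr1 at −0.198 and −0.18.

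**Figure D3:**
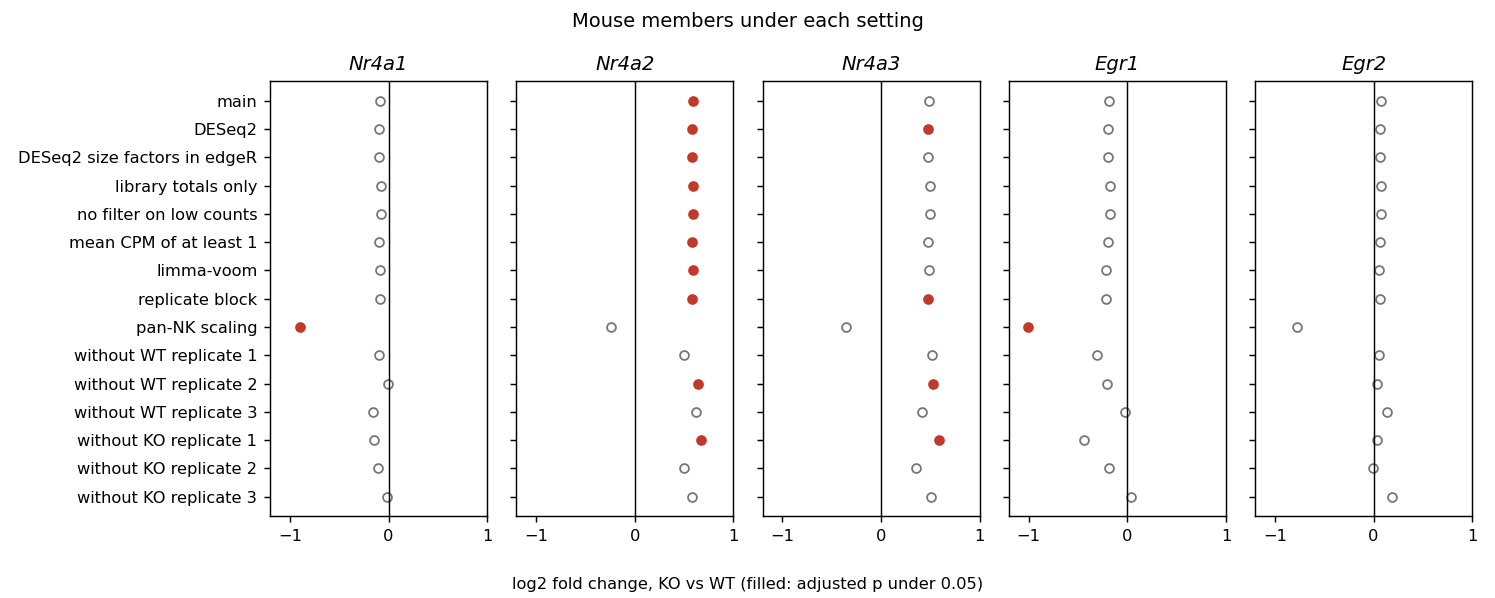
Each panel plots 1 mouse member, with the log2 fold change of KO against WT on the horizontal axis and a row for each way of processing the counts. Filled points are calls at an adjusted p under 0.05. Nr4a2 and Nr4a3 lie above 0 in every row except pan-NK scaling, where all 5 members lie below 0.

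Ratios of reads within a library need no scaling between libraries. This comparison was chosen after the data were seen, with Nr4a1 as the denominator because its level per length was the highest in WT cells. Reads of Nr4a2 were 3.88%, 4.28% and 5.05% of the reads of Nr4a1 in the WT replicates and 5.65%, 7.56% and 7.88% in the KO replicates, a ratio 1.59-fold higher between geometric means. Reads of Nr4a3 were 13.4%, 12.2% and 12.7% of Nr4a1 in the WT replicates and 15.03%, 21.7% and 20.6% in the KO replicates, 1.48-fold higher. Neither ratio overlapped between the groups (two-sided exact permutation test, p = 0.1 for each, the smallest that 3 against 3 allow), as was so for 20.2% of genes in the higher and 10.4% in the lower direction. Egr1 and Egr2 overlapped on this scale, with exact permutation p of 0.7 and 0.4. These ratios are formed from the same reads as the fold changes above, so they are no separate support for the rises.

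In BIX-treated NK92MI cells NR4A1, NR4A3 and EGR2 were called higher. NR4A1 (GRCh38, chromosome 12, 52022832 to 52059507, plus strand) rose from the lowest level of all members. It was counted at 0.524, 1.05 and 0.828 CPM in the DMSO libraries, which are 9, 18 and 14 reads, and at 4.08, 4.23 and 4.01 CPM in BIX replicates 1 to 3, which are 67, 72 and 68 reads. Every BIX library lay above every DMSO library and the BIX libraries differed little among themselves. The rise was 5.09-fold (95% interval 3.39 to 7.66), with a log2 fold change of 2.35 (SE 0.27, adjusted p = 2.20e-05 by edgeR). With 10 reads or more in only 2 of 3 DMSO libraries, NR4A1 passed the filter by its BIX libraries. Its exons overlap the antisense gene NR4A1AS over 403 bases. That gene has no row in the count table, and since the strand setting of the counting is not stated, reads of both transcripts cannot be told apart there.

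NR4A3 (chromosome 9, 99821855 to 99866891, plus strand) stood at 7.97, 7.60 and 8.46 CPM in the DMSO libraries and at 20.03, 22.7 and 16.7 CPM in the BIX replicates. The DMSO libraries lay close together and well below the lowest BIX library. NR4A3 rose 2.47-fold (95% interval 2.03 to 3.01), with a log2 fold change of 1.31 (SE 0.13, adjusted p = 6.26e-06 by edgeR). Both NR4A1 and NR4A3 were called in each of the 12 alternative fits, which included leaving out every library in turn, with log2 fold changes between 2.12 and 2.59 for NR4A1 and between 1.201 and 1.42 for NR4A3.

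EGR2 (chromosome 10, 62811996 to 62819167, minus strand) encodes a factor known from T cell anergy and from myelination of nerves. It was counted at 4.77, 6.20 and 3.67 CPM in the DMSO libraries and at 8.58, 6.11 and 7.85 CPM in the BIX replicates. The groups overlapped, since BIX replicate 2 lay just below the highest DMSO library. EGR2 rose 1.54-fold, with a log2 fold change of 0.62 (SE 0.20, 95% interval 0.19 to 1.05, adjusted p = 0.0250 by edgeR). The call was lost without the first DMSO library (adjusted p = 0.0657), without the last DMSO library (0.117) or without BIX replicate 1 (0.101). Of its exons 109 bases are shared with an unnamed gene on the same strand that has no row in the count table.

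NR4A2 and EGR1 were not called. NR4A2 (chromosome 2, 156324437 to 156342348, minus strand) stood at 18.6, 19.9 and 17.9 CPM in the DMSO libraries and at 18.6, 18.8 and 16.2 CPM in the BIX replicates, with overlapping ranges and a log2 fold change of −0.08 (SE 0.10, interval −0.30 to 0.15, adjusted p = 0.606 by edgeR). EGR1 (chromosome 5, 138465479 to 138469303, plus strand) stood at 6.93, 8.59 and 9.05 CPM in the DMSO libraries and at 6.82, 7.76 and 8.56 CPM in the BIX replicates. These ranges overlapped almost fully, and the log2 fold change was −0.09 (SE 0.15, interval −0.41 to 0.24, adjusted p = 0.695 by edgeR). For NR4A2 the interval excludes a rise of the size measured for NR4A3.

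Within each human library, reads of NR4A1 were 2.81%, 5.28% and 4.64% of the reads of NR4A2 with DMSO and 22.0%, 22.6% and 24.7% with BIX. Reads of NR4A3 went from 42.8%, 38.1% and 47.4% of NR4A2 to 107.9%, 121% and 102.9%, so that NR4A3 had more reads than NR4A2 in every BIX library and fewer in every DMSO library. EGR2 was at 25.6%, 31.1% and 20.5% of NR4A2 with DMSO and at 46.2%, 32.6% and 48.4% with BIX. On this scale the groups of EGR2 did not overlap, as those of NR4A1 and NR4A3 did not (exact permutation p = 0.1 each), which 26.3% of human genes showed in the higher and 13.9% in the lower direction. EGR1 overlapped (exact permutation p = 0.9). As in mouse, the ratios restate the reads behind the fold changes and are no separate support for them.

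The members that passed the test thus differed between the deletion in sorted mouse cells and the inhibitor in the human line. Nr4a2 was called in mouse, whereas human NR4A2 had a log2 fold change of −0.08, and NR4A1 was called in human, whereas mouse Nr4a1 had a log2 fold change of −0.09. Nr4a3 and NR4A3 had log2 fold changes of 0.49 and 1.31, with groups apart in both species. The difference between the comparisons was not tested, since species, kind of cell and way of removing EHMT2 activity cannot be told apart.

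The members also stood in a different order in the 2 cell systems. Levels of different genes were compared per kilobase of annotated exon (GENCODE, all exons of a gene merged). In WT NK cells Nr4a1 was highest at 56.7 ± 5.35 CPM per kilobase (SD, n = 3), followed by Egr1 at 12.1 ± 2.40, Nr4a3 at 4.24 ± 0.345, Egr2 at 2.62 ± 0.207 and Nr4a2 at 2.15 ± 0.231, and no neighbours in this order overlapped in their ranges. In KO cells the order was Nr4a1 at 53.4 ± 5.07, Egr1 at 10.7 ± 3.44, Nr4a3 at 5.94 ± 0.9999, Nr4a2 at 3.22 ± 0.406 and Egr2 at 2.76 ± 0.389 CPM per kilobase (SD, n = 3), and only the ranges of the last pair overlapped. In DMSO-treated NK92MI cells NR4A2 was highest at 4.58 ± 0.254, then EGR1 at 2.61 ± 0.357, EGR2 at 1.32 ± 0.342 and NR4A3 at 1.27 ± 0.0684, which overlapped each other, and NR4A1 lowest at 0.110 ± 0.0364 CPM per kilobase (SD, n = 3). With BIX, NR4A2 remained first at 4.34 ± 0.341, NR4A3 at 3.14 ± 0.475, EGR1 at 2.46 ± 0.278 and EGR2 at 2.03 ± 0.342 overlapped with their neighbours, and NR4A1 was still the lowest at 0.563 ± 0.0153. The merged exons of human NR4A1 span 7295 bases against 3509 in mouse, so its value per kilobase depends on which exons the annotation holds.

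**Figure D4:**
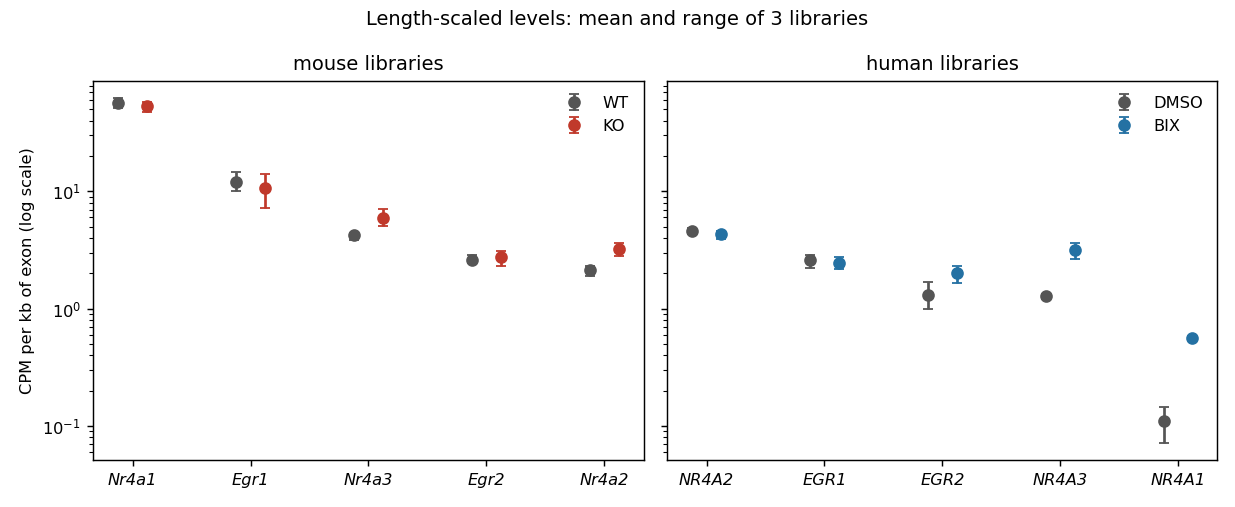
The vertical log axis is CPM per kilobase of merged exon, points are group means and bars the range of 3 libraries. Nr4a1 leads in mouse at 56.7 CPM per kilobase in WT cells, and NR4A1 is the lowest member in human at 0.110 with DMSO and 0.563 with BIX.

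The nearest relatives and partners of the members were given as a list of 6 genes. In mouse 5 were tested and 0 were called by edgeR, with a median log2 fold change of 0.09 against 0.01 for all genes tested. At an unadjusted p under 0.05 there was 1, and DESeq2 called 1, in both cases Nab2. Of all 13189 mouse genes tested, DESeq2 called 1098 higher and 1989 lower. Nab2, an EGR corepressor that EGR factors themselves induce, had 54.8 ± 7.35 CPM in WT and 74.7 ± 7.53 CPM in KO cells (SD, n = 3), with groups apart, a log2 fold change of 0.45 and an adjusted p of 0.0544 by edgeR. The other values were 0.20 for the corepressor Nab1 (adjusted p = 0.141), −0.49 for the receptor partner Rxra (0.181), 0.09 for Rxrb (0.39) and −0.43 for Egr3 (0.238), all by edgeR, and Egr4 had too few reads to be tested. In human 1 of 4 tested genes was called higher and 2 lower (75% called, against 36.9% of all genes tested), with a median of −0.16 against −0.01. NAB1 rose from 41.8 to 56.3 CPM (log2 fold change 0.43, adjusted p = 0.00285 by edgeR), whereas RXRA fell from 9.10 to 5.61 CPM (−0.70, adjusted p = 0.0021) and RXRB from 32.7 to 25.6 CPM (−0.36, adjusted p = 0.00661). NAB2 stood at 8.47 and 8.70 CPM (adjusted p = 0.867), EGR4 was not tested and EGR3 was not analysed here.

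A list of 22 regulators covered the routes that switch the members on, namely calcineurin and NFAT, MAP kinases, SRF with its cofactors, and CREB. Of the 22 mouse genes 0 were called by edgeR, and the median log2 fold change was 0.09. At an unadjusted p under 0.05, 7 were higher and 0 lower, against 2080 and 2639 of the 13189 genes tested. DESeq2 called 3, the factors Creb1, Elk3 and Nfatc3, all higher, against 1098 higher and 1989 lower among the 13189 genes tested. In BIX-treated cells 5 of 21 tested genes were called higher and 5 lower (47.6% called, against 36.9% of all genes tested), with a median of −0.03 against −0.01. CREM, a CREB relative, had the largest log2 fold change of those called higher, 0.65, from 21.8 to 34.3 CPM (adjusted p = 6.23e-05 by edgeR). ATF1, another CREB relative, rose by 0.33, the calcineurin subunits PPP3CA and PPP3R1 by 0.26 each and the kinase MAP2K1 by 0.16 on the log2 scale. Among those called lower, the calcineurin subunit PPP3CB fell by 0.43, the kinases MAP2K2 and MAPK3 by 0.36 and 0.25, and SRF by 0.22 on the log2 scale.

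Genes known to depend on or to accompany EGR and NR4A factors in lymphocytes, a list of 24, held calls in both directions. In mouse 3 of 23 tested genes were higher and 3 lower (26.1% called, against 11.9% of all genes tested), with a median log2 fold change of 0.04. Socs1, a feedback inhibitor of cytokine signalling, rose from 26.3 ± 3.02 to 50.9 ± 9.01 CPM (log2 fold change 0.95, adjusted p = 0.0269 by edgeR). Tnfrsf9, the costimulatory receptor 4-1BB, rose from 41.1 ± 10.1 to 67.1 ± 8.73 CPM (0.71, adjusted p = 0.0472), and Cblb, a ubiquitin ligase that restrains NK and T cell activation, from 124 ± 14.4 to 181 ± 27.5 CPM (0.55, adjusted p = 0.0454). Sema7a, a membrane semaphorin, fell by 1.002 on the log2 scale, Havcr2, the inhibitory receptor TIM-3, by 0.70 and the stress gene Ndrg1 by 0.56, with adjusted p of 0.0445, 0.0368 and 0.0472 by edgeR. No call on this list remained without WT replicate 3, KO replicate 2 or KO replicate 3. These fits called 14, 0 and 0 mouse genes in all. A single lower call remained without WT replicate 1, among 99 genes called. Pan-NK scaling gave 0 calls higher and 12 lower, against 35 and 8818 of the 13189 genes tested.

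In human 5 of 18 tested genes of that list were higher and 6 lower (61.1% called, against 36.9% of all genes tested), with a median of −0.05. TNFRSF9 rose from 4.68 ± 1.31 to 64.5 ± 3.83 CPM, a log2 fold change of 3.78 (adjusted p = 1.95e-09 by edgeR), above that of any member. NDRG1 rose by 0.94, the cell cycle inhibitor CDKN1B by 0.63, the inhibitory receptor TIGIT by 0.35 and HAVCR2 by 0.23 on the log2 scale. SEMA7A fell by 0.86, the diacylglycerol kinases DGKZ and DGKA by 0.64 and 0.63, the death ligand gene FASLG by 0.64, and the TOX family genes TOX2 and TOX by 0.54 and 0.21. Of the genes called in both species, TNFRSF9 was higher and SEMA7A lower in both, and NDRG1 and HAVCR2 went in opposite directions. How often all genes called in both species had the same direction was not counted, so no likeness is read from these. The human call of HAVCR2 was lost without the second or the third DMSO library or BIX replicate 1, and that of TOX without the first DMSO library or BIX replicate 1.

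**Figure D5:**
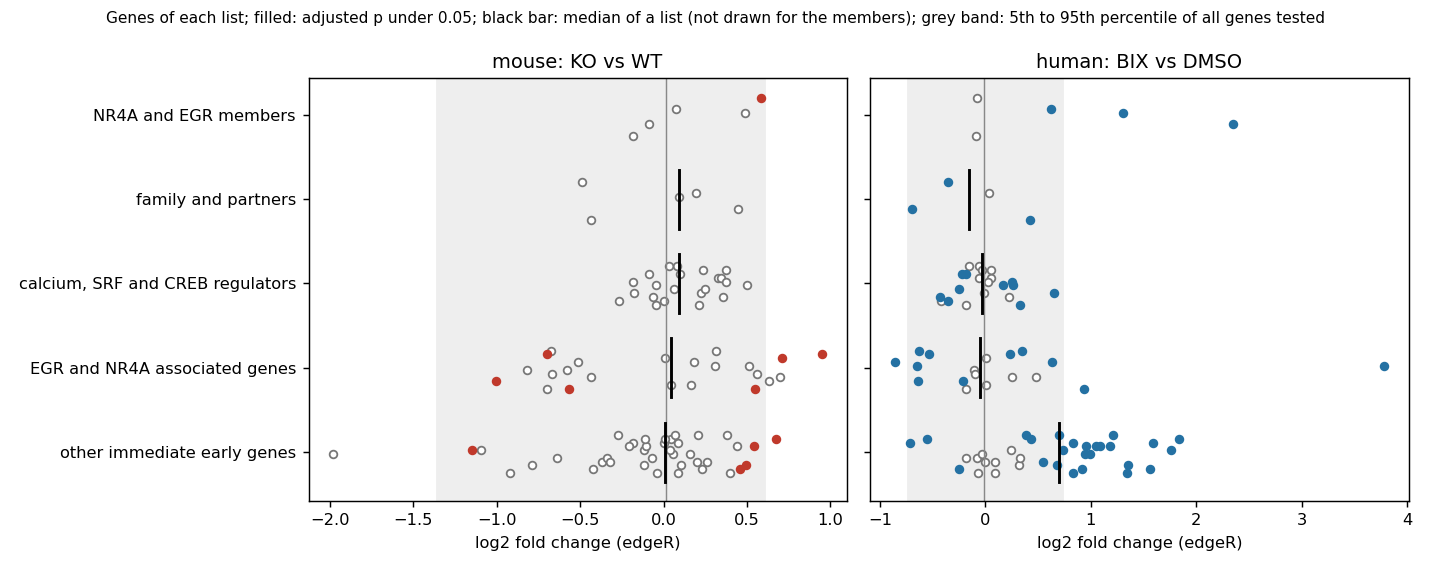
Each point is a gene of the list named on the left, with its log2 fold change on the horizontal axis, mouse on the left and human on the right. Filled points are calls at an adjusted p under 0.05, black bars are list medians and the grey band is the central range of all genes tested. In human the other immediate early genes have a median of 0.70, and the other medians lie between −0.16 and 0.09.

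Other immediate early genes were compared with the members as a list of 42. In mouse 4 of 40 tested genes were higher and 1 lower (12.5% called, near the 11.9% of all genes), and the median log2 fold change was 0.0077, against 0.0138 for all genes tested. Those higher were the phosphatase gene Dusp2 (141 to 225 CPM, 0.67, adjusted p = 0.0275 by edgeR), the circadian and effector regulator Bhlhe40 (0.54), the NF-κB inhibitor Nfkbid (0.49) and the AP-1 gene Jund (0.46), and Trib1, a pseudokinase, fell by 1.15 on the log2 scale. In BIX-treated cells 22 of 35 tested genes were higher, against 18.4% of all genes tested, and 3 were lower, also against 18.4%, with a median of 0.70. The AP-1 gene JUN rose from 72.8 ± 4.74 to 246 ± 17.3 CPM, a log2 fold change of 1.76 (adjusted p = 3.37e-09 by edgeR), and PPP1R15A, which restores translation during stress, from 107 ± 11.3 to 384 ± 50.7 CPM (1.84, adjusted p = 2.26e-08). TNFAIP3, an NF-κB feedback inhibitor, rose by 1.59, the kinase gene SGK1 by 1.56, BHLHE40 by 1.08 and ZFP36L1, whose product destabilises mRNA, by 1.04 on the log2 scale. FOS fell by 0.72 (5.15 to 3.14 CPM, adjusted p = 0.0206), DUSP2 by 0.55 and DUSP6 by 0.25. NR4A1 thus had the largest log2 fold change and NR4A3 a value within the range of this list, while EGR2, EGR1 and NR4A2 lay below its median. DUSP2 was called higher in mouse and lower in human. Leaving out each human library gave 21 to 23 genes higher and 0 to 3 lower, with 0 without BIX replicate 1 and 1 without the first or the second DMSO library or BIX replicate 2. In mouse 0 genes of the list were called without WT replicate 1, WT replicate 3, KO replicate 2 or KO replicate 3. These fits called 99, 14, 0 and 0 genes in all. Pan-NK scaling gave 0 higher and 29 lower on the list, against 35 and 8818 of the 13189 genes tested.

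The genes whose log2 CPM followed a member most closely over the 6 libraries of a species are given as a description, among genes with a mean of at least 10 CPM (9128 in mouse, 8554 in human). Ndufa3 (Pearson r = 0.992), Sytl1 (0.985), Cwc15 (0.95), Srfbp1 (0.946) and Trappc6a (0.94) were most like Nr4a1. Siah2 (0.991), Csrnp1 (0.971), Atg16l2 (0.967), Tnfaip8l2 (0.957) and Tfeb (0.954) were most like Egr1, and of these Csrnp1 is itself an immediate early gene. In human PLCL2 (0.999), RAP2B (0.998), BICDL1 (0.997), CSNK1A1 and MPP2 (0.996 each) followed NR4A1, whose values fall into a DMSO and a BIX cluster, so that these correlations rest on the difference between the groups. DHRS4-AS1 (0.968), CYTH1 (0.965), MFSD12 (0.962), C6orf120 (0.955) and NFKBID (0.947) were most like EGR1. All points of a species share their libraries and depth. With 6 libraries and this many candidates, the top genes can reach such r by selection alone. This was not tested, and no link to a member is read from them.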

How the data were processed

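RNA-seq counts of 3 WT and 3 KO spleen NK cell libraries and of 3 DMSO and 3 BIX NK92MI libraries were used. Per the labels and the methods, the authors trimmed reads with fastp 0.23.4, aligned them with STAR 2.7.11b to GRCm38 or GRCh38, allowing 2 mismatches, and counted them with HTSeq 2.0.3. The deposited values are raw counts per gene symbol. The annotation release and the strand setting are not given in the sources used here. The columns of the human controls carry no replicate number of the labels, so they were used as a group.

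Each species was fitted separately in R 4.3.3 with edgeR 4.0.16 (TMM, filterByExpr with a minimum count of 10, quasi-likelihood test, Benjamini-Hochberg adjustment over all genes tested). The threshold of 0.05 was chosen knowing that 0.01 calls 0 mouse genes by edgeR. CPM are TMM-normalized. The members, the lists and the tests were chosen with earlier results of these data known. Genes named are all members, the targeted gene, the family and partners list, up to 6 called genes per list and direction with the smallest adjusted p, and the 5 genes with the highest Pearson r to Nr4a1, Egr1, NR4A1 and EGR1. Alternatives were DESeq2 1.42.0, its size factors in edgeR, library totals, limma-voom (limma 3.58.1), filters at a mean CPM of 1 or none, an adjusted p under 0.01 with an absolute log2 fold change over 0.5, a replicate block, pan-NK scaling and each library left out. Ratios within a library were added after the data were seen and tested by a two-sided exact permutation test. Gene positions and exon lengths are from GENCODE releases of these builds, and the authors may have counted with another release. Promoter windows are from RefSeq. The fits were tested on simulated data. At a depth of 16579469 to 37438868 counts per library, counting error is small except for genes with few reads, such as NR4A1 with 9 to 18 reads with DMSO. The H3K9me2 profiles of the study were not analysed here. The values of a regulator counted among the calls are not reported here.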

Additional observations from a re-analysis of the deposited data

How the results depend on the processing

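The mouse member count of 1 and the 1565 mouse genes called became 2 and 3087 with DESeq2, 0 and 0 by edgeR at an adjusted p under 0.01 with an absolute log2 fold change over 0.5, and 2 and 8853 with pan-NK scaling, where 0.395% of calls were higher in place of 37.4%. Over the lists of partners, regulators, associated and immediate early genes together, 7 mouse genes were higher and 4 lower, against 16 and 11 with DESeq2, 0 and 0 at the stricter thresholds and 0 and 59 with pan-NK scaling. With each library left out these counts ran from 0 to 2 members, 0 to 3530 genes, 0 to 20 list genes higher and 0 to 13 lower. Mouse genes called by edgeR numbered 99 without WT replicate 1, 3530 without WT replicate 2, 14 without WT replicate 3 and 0 without KO replicate 2 or 3. With the replicate number as a block (replicate block) 2 members, Nr4a2 and Nr4a3, and 3222 genes were called, with 20 list genes higher and 11 lower. The numbers share no stated origin: deviations of same-numbered WT and KO libraries correlated at 0.281, 0.352 and −0.188, and WT replicate 3 correlated best with KO replicate 1, so the block is not read as pairing. No paired analysis was possible because, for human, the control columns carry no replicate numbers of the labels. In human the stricter thresholds left 1485 of 4692 genes and 6 of 16 list genes lower, and leaving out each library gave 2 to 3 of 3 members, 3491 to 5021 genes, 30 to 34 list genes higher (33 with all libraries) and 9 to 15 lower. Signs turned with pan-NK scaling for Nr4a2 (−0.24), Nr4a3 (−0.35) and Egr2 (−0.77), for Egr2 without KO replicate 2 (−0.0088, up to 0.18 without KO replicate 3), for Egr1 without KO replicate 3 (0.0336, down to −0.44 without KO replicate 1 and −1.003 with pan-NK scaling) and for EGR1 without BIX replicate 1 (0.0013, −0.16 without BIX replicate 3, and down to −0.20 without the first DMSO library). The cause was not tested. The adjusted p of Nr4a2 ran from 0.0105 to 0.474 over its alternatives, and those of NR4A1 and NR4A3 reached at most 0.000325 and 0.000171. In order of CPM without length, 3 of 5 human members kept their rank in each group.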

Other observations

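Heat shock genes, whose products fold proteins under stress, were followed as a further list of 11, which also holds constitutive members such as HSPA8. Of these, 8 have a row in the human count table. In mouse 1 of 10 tested genes was called higher and 0 lower, against 4.44% and 7.43% of all genes tested. It was the cochaperone gene Dnajb1, which rose from 65.8 ± 4.82 to 86.3 ± 8.76 CPM (SD, n = 3). Its log2 fold change was 0.39, with an adjusted p of 0.0488 by edgeR. The summed level of the list was 2693 to 3366 CPM in WT and 2639 to 2790 CPM in KO libraries. In BIX-treated NK92MI cells 4 of 8 tested genes were called lower and 1 higher (62.5% called). Of all genes tested 18.4% were called lower and 18.4% higher (36.9% called). HSPA8, the constitutive HSP70, fell by 0.59 on the log2 scale (1805 to 1197 CPM, adjusted p = 3.39e-06 by edgeR), the mitochondrial chaperonin HSPD1 by 0.37, HSP90AB1 by 0.31 and HSP90AA1 by 0.29, and the summed level of the list went from 7594 to 7888 CPM with DMSO to 5920 to 6266 CPM with BIX. BAG3, a cochaperone, rose from 1.23 to 2.25 CPM (log2 fold change 0.86, adjusted p = 0.0482 by edgeR).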
